A study of Mus musculus with 2 samples.

Results

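The Hoxd cluster is a row of 9 homeobox genes, Hoxd1, Hoxd3, Hoxd4, Hoxd8, Hoxd9, Hoxd10, Hoxd11, Hoxd12 and Hoxd13. Evx2, a homeobox gene of the even-skipped family, lies beside Hoxd13 and is counted with it here. Their loops were all those with at least 1 anchor between 74.0 and 75.6 Mb of mouse chromosome 2 (mm10), which gave 10 of the 4982 loops in the deposited list. A loop links 2 genomic intervals, its anchors, whose contact frequency stood out locally to the authors' caller. The genes and the interval were selected on these loops, namely on the number and direction of loops in the list, so counts at the cluster are descriptions and no test was made.

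The contacts were measured by Micro-C, a proximity ligation assay on fixed chromatin digested by micrococcal nuclease. The cells were V6.5 embryonic stem cells, a male mouse line. The single group, siControl, comprised 2 samples, both transfected with 50 nM of the siGLO control reagent and collected 48 hours later. The cells were wild type, and no named gene was targeted. The list gives 1 value per loop for the group and none per sample, so the spread between replicates could not be measured, and the read depth is unknown. The list holds no expression values, so the cell type was not checked against markers.

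Hox genes encode transcription factors that give cells their position along the body axis and the limb. In vertebrates they are switched on in the order in which they lie on the chromosome, from Hoxd1 toward Hoxd13. Gene-poor regions with enhancers flank the Hoxd cluster. The one toward lower coordinates, beyond Evx2, acts in digits and external genitalia, and the one toward higher coordinates, beyond Hoxd1, acts in the proximal limb among other tissues. In embryonic stem cells, Hox genes are largely silent and bound by Polycomb proteins, and CTCF with cohesin forms many chromatin loops.

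The cluster, from the lowest base of Evx2 to the highest of Hoxd1, covers 74652989 to 74765142 (112 kb). Evx2 is transcribed toward lower coordinates and the 9 Hoxd genes toward higher ones. Loops left the cluster from 2 places, in opposite directions. At the Evx2 and Hoxd13 end, 5 loops ran toward lower coordinates and none toward higher. At an anchor with the starts of Hoxd3 and of the lncRNA Hoxd3os1, 3 loops ran toward higher coordinates and none toward lower. A further loop had both anchors inside the cluster, and the last lay wholly outside it. No listed loop passed over the whole cluster.

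**Figure D1:**
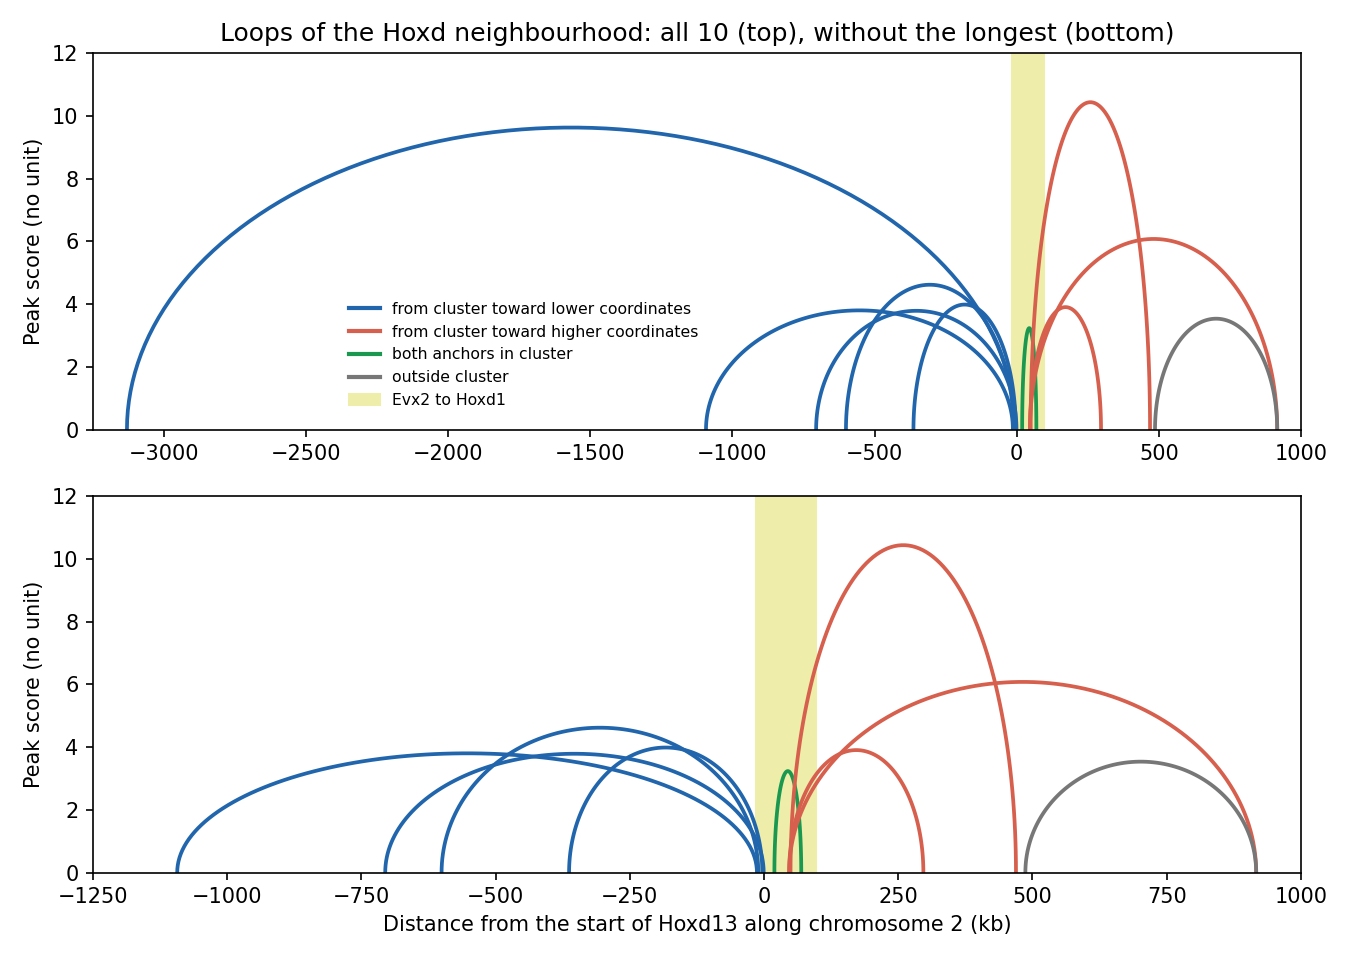
Each arc is 1 loop, drawn between the midpoints of its anchors, with distance from the start of Hoxd13 (kb) on the horizontal axis and the arc's height giving the deposited peak score. The upper panel holds all 10 loops and the lower panel leaves out the loop of 3125 kb. The 5 blue arcs leave the Evx2 and Hoxd13 end toward lower coordinates, and the 3 red arcs leave the anchor of Hoxd3 and Hoxd3os1 toward higher coordinates.

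The promoters below are those of protein-coding genes whose transcription start lay inside an anchor of a loop that leaves the cluster. They are RefSeq sequences of build GRCm38.p6, 5′ to 3′ on the gene's own strand, from 250 bases before to 50 after the start, and capitals mark CpG dinucleotides. Evx2 (chr2:74659508-74659807, minus strand), Hoxd13 (chr2:74667975-74668274, plus strand) and Hoxd3 (chr2:74711743-74712042, plus strand) are members. Dlx1 (chr2:71529195-71529494, plus strand) and Dlx2 (chr2:71546705-71547004, minus strand) lie at the far end of the longest loop.
Evx2: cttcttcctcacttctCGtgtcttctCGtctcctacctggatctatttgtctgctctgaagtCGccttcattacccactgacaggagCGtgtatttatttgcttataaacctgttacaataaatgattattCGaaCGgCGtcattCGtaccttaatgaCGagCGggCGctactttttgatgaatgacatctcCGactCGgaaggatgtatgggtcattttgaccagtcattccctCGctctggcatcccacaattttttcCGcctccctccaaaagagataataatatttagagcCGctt
Hoxd13: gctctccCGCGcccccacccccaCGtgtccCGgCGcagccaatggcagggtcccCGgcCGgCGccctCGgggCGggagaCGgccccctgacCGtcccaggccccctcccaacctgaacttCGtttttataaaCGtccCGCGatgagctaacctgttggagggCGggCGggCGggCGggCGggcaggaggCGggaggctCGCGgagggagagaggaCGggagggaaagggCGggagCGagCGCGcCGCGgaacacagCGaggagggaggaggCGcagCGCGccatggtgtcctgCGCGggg
Hoxd3: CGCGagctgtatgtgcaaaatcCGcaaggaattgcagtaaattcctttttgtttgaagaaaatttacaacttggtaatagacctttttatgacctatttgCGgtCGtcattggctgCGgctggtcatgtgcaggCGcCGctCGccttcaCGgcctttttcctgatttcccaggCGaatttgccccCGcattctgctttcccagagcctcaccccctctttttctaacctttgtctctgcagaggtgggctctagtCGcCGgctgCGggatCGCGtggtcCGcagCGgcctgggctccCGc
Dlx1: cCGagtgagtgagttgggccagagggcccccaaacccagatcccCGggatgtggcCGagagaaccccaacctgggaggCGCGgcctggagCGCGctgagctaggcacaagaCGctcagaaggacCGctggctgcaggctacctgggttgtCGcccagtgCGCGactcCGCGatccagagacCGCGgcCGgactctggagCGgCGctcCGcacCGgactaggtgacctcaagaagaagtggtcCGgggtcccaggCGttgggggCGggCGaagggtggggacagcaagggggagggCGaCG
Dlx2: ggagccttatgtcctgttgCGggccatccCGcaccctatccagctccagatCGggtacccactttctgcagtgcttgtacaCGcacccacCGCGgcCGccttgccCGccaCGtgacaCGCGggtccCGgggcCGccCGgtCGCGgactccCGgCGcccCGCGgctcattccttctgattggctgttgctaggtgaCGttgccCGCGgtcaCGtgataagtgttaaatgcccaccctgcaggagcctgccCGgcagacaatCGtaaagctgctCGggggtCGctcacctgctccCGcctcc

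These windows differed in CpG content. The Hoxd13 window held 37 CpG dinucleotides and was 74.3% G and C, the Hoxd3 window held 20 (54%), and the Evx2 window held 16 (44.3%). The Dlx1 and Dlx2 windows held 27 and 29. The median over all 32851 promoter windows of the table was 7 and the third quartile 20. CpG-dense promoters without activity are typical sites of Polycomb binding, which was not measured here. The 10 members had 11 windows, of which 8 were above the median and 4 above the third quartile. The windows of Evx2, Hoxd13 and Hoxd3, the members with a start at an anchor, were all above the median. Windows of the other members ran from 4 to 29 CpG, a range that includes Evx2 and Hoxd3 but not Hoxd13. Hoxd1, with 29 CpG, and Hoxd10, with 22, had no transcription start at an anchor, and both exceeded Evx2 and Hoxd3. Hoxd4 and Hoxd8 had windows of 4 and 6 CpG and no start at an anchor either. The same held for Hoxd11, with windows of 25 and 4 CpG, Hoxd9, with 20, and Hoxd12, with 13.

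Evx2 and Hoxd13 carried the loops toward lower coordinates. Evx2 is expressed in limbs and the nervous system, and Hoxd13 acts in digit development. Merging anchors with 1 bp or more in common put these loops on 1 anchor of 25 kb, from 74650001 to 74675000. Inside it, finer pixels separated the 2 transcription starts. The caller listed loops at pixels (bins of the contact map) of 5, 10 or 25 kb, and an anchor is 1 pixel wide.

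The Evx2 start at 74659557 lay in 2 of the finer anchors. A loop of 5 kb pixels joined 74655001 to 74660000 with 74065001 to 74070000, 590 kb away, at a site with no RefSeq gene record. Its peak score, a value of the caller without a unit that ranks loops within the list, was 4.62, the 41.7th percentile of the 1265 loops of that pixel size. A loop of 10 kb pixels joined 74650001 to 74660000 with 73570001 to 73580000, 1080 kb away. That far anchor lies within Chrna1, a muscle acetylcholine receptor subunit, and holds neither end of its record. The peak score was 3.80, the 40.9th percentile of the 3047 loops of 10 kb pixels.

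The Hoxd13 start at 74668225 lay in the other 2 finer anchors. A loop of 5 kb pixels joined 74665001 to 74670000 with 73960001 to 73965000, 705 kb away, where the lncRNA Gm38603 and the pseudogene Gm13668 are annotated. Its peak score was 3.79, the 11.8th percentile of its pixel size. A loop of 10 kb pixels joined 74660001 to 74670000 with 74300001 to 74310000, 360 kb away. The start of the lncRNA 4930441J16Rik lies in that far anchor, and the peak score was 3.98, the 49.6th percentile. The near anchor of this loop also holds the upper end of the Evx2 record, though not the Evx2 start. Since Evx2 is on the minus strand, that upper end is the 5′ end of its record. Assigned by the transcription starts used here, the far sites interleaved along the flank, at 360 and 705 kb for Hoxd13 and 590 and 1080 kb for Evx2. With the 5′ end of the Evx2 record as its start, the 360 kb loop would be at both genes. The 590 and 1080 kb loops would then hold no Evx2 start, so the interleaving rests on the start used. All of these 4 loops scored below the median of their pixel size. No far anchor was shared among them.

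The longest loop of the cluster was seen at 25 kb pixels only, at which Evx2 and Hoxd13 cannot be separated. It covered 3125 kb and joined 74650001 to 74675000 with 71525001 to 71550000. The far anchor holds the starts of Dlx1 and Dlx2, which act in forebrain and limb development, and 1 end of Metap1d. Its peak score of 9.63 ranked 10 of the 670 loops of 25 kb pixels. The peak pixel itself, a contact value whose normalization is unknown, was 10.1, at only the 18.4th percentile of that pixel size. Peak score and contact value thus placed this loop far apart within the list. Neither percentile was matched for span, and the median span at 25 kb pixels was 650 kb. Loops at least as long numbered 25 of 4982 (0.502%), all of 25 kb pixels. The same Dlx anchor took part in 1 more loop, which ran toward lower coordinates.

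**Figure D2:**
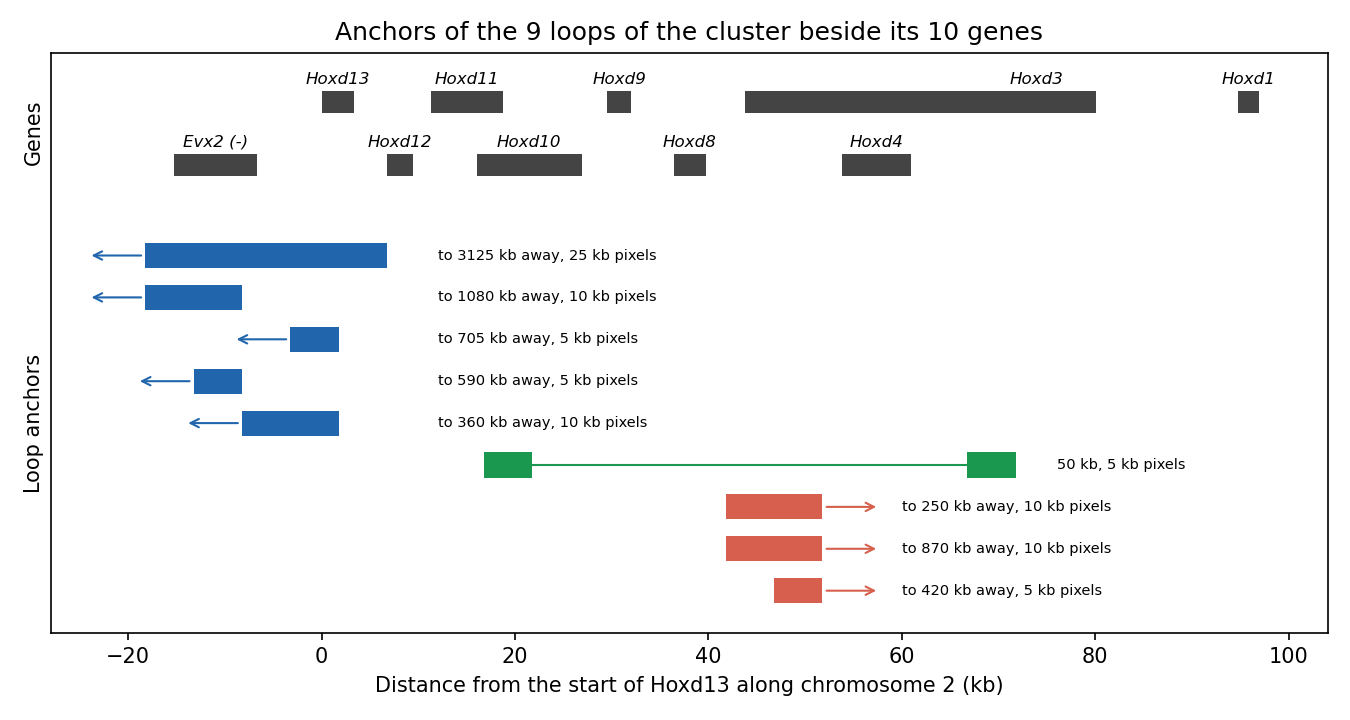
Horizontal position is distance from the start of Hoxd13 (kb). Dark bars are the 10 gene records, with (-) for the gene on the minus strand, and coloured bars below are the anchors of the 9 loops of the cluster, 1 row per loop, with arrows toward the far anchor. Anchors of loops toward lower coordinates (blue) end before the first base of Hoxd12, and anchors of loops toward higher coordinates (red) begin past the last base of Hoxd8.

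Hoxd3, a member of the early-expressed part of the cluster, lay at the anchor of the loops toward higher coordinates. The merged anchor ran from 74710001 to 74720000. A loop of 10 kb pixels joined it with 74960001 to 74970000, 250 kb away, where no gene record lies. That loop had a peak score of 3.90, the 45.7th percentile of its pixel size. Another of 10 kb pixels reached 75580001 to 75590000, 870 kb away, inside the record of the predicted gene Gm50595. It had a peak score of 6.08, the 93.4th percentile. The start of Hoxd3, at 74711993, lay in the anchor of both. So did a start of the lncRNA Gm38462, at 74712058, and the start of Hoxd3os1, at 74716130.

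The third loop from this anchor had the highest peak score of the 10. It was listed at 5 kb pixels and joined 74715001 to 74720000 with 75135001 to 75140000, 420 kb away. Its peak score of 10.4 ranked 10 of 1265 loops of its pixel size, and its peak pixel of 9.73 ranked 15. Both measures thus placed it in the top few percent, unlike the loop to Dlx1 and Dlx2. These ranks were not matched for span, which was 420 kb here and 3125 kb for the loop to Dlx1 and Dlx2. At this resolution the start of Hoxd3 was outside the anchor. The start inside it was that of Hoxd3os1, a lncRNA on the opposite strand, at 74716130. The far anchor holds starts of the lncRNA Gm13652 and of the lncRNA 2600014E21Rik, which are transcribed in opposite directions.

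Promoter windows at both anchors of this highest-scoring loop are printed because each holds the 8 letters AGGGGGCG or their reverse complement, a stretch found within the recognition sequence of CTCF. They are Hoxd3os1 (chr2:74716081-74716380, minus strand) and the Gm13652 start farthest toward higher coordinates (chr2:75137926-75138225, minus strand), from RefSeq, GRCm38.p6, 5′ to 3′, with the match in capitals.
Hoxd3os1: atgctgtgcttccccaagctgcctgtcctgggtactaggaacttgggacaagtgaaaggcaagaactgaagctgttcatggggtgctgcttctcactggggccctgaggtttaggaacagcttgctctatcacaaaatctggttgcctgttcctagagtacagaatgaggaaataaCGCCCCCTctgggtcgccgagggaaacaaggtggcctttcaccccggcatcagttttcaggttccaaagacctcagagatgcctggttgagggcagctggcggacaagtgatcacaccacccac
Gm13652: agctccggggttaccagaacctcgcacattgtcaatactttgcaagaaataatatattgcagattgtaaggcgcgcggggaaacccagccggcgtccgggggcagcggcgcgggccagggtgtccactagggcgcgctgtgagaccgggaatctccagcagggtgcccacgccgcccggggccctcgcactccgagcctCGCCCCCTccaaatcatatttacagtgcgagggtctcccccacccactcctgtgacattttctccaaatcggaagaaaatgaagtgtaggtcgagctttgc

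The letters were searched on both strands, and no other motif was counted. They were chosen after these sequences had been read. The match begins at base 177 of the Hoxd3os1 window and at base 200 of the Gm13652 window. In both it is the reverse complement as printed, so AGGGGGCG itself reads along the plus strand of the chromosome. Of all 32851 windows, 6.07% held a match. None of the 11 windows of the members did, and 1 of the 5 windows of Gm13652 did. The 2600014E21Rik window at the same far anchor held none. A window of the lncRNA Gm38462 (chr2:74705552-74705851), inside the cluster but at no anchor, held one. Its other window (chr2:74712009-74712308), at the Hoxd3 anchor, held none. A match in letters is not evidence of binding, and windows of 300 bases cover little of an anchor.

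The loop outside the cluster lay near far sites of the loops from the Hoxd3 anchor. This loop, of 10 kb pixels, joined 75150001 to 75160000, in 2600014E21Rik, with 75580001 to 75590000. Its span was 430 kb and its peak score 3.53, the 27.1th percentile. Its upper anchor was exactly that of the 870 kb loop from Hoxd3. Its lower anchor began 10 kb past the far anchor of the highest-scoring loop. If anchors 10 kb apart are taken as 1 site, the Hoxd3 anchor and 2 of its 3 far sites were joined in every combination. The same rule would join the Evx2 and Hoxd13 anchor to one overlapping Hoxd11 and Hoxd10, which also lies 10 kb away. That joined site would carry the loop inside the cluster, so its loops would no longer all run toward lower coordinates. The remaining far site, 74960001 to 74970000, had no other loop. On the other flank no listed loop joined 2 far sites of the Evx2 and Hoxd13 loops to each other.

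The stretch between the outward-facing anchors, from 74675001 to 74710000, was 35 kb long. Hoxd12, Hoxd11, Hoxd10, Hoxd9 and Hoxd8 lie there, and no loop left the cluster from any of them. These genes pattern the limb and trunk. Hoxd12 missed the 25 kb anchor narrowly, since its first base lies 13 bp past the anchor's last. The start of Hoxd9 was 7.76 kb and that of Hoxd8 5.39 kb from the nearest anchor. The nearer start of Hoxd11 and the start of Hoxd10 lay closer, 2.68 and 1.89 kb from the anchor at 74685001 to 74690000.

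The only loop within the cluster joined 74685001 to 74690000 with 74735001 to 74740000 at 5 kb pixels. The first anchor holds the last base of the Hoxd11 record and overlaps that of Hoxd10, but no start. The second lies in the long Hoxd3 record, past Hoxd4, and holds no end of a gene. The loop spanned 50 kb, and only 6 loops of the list (0.12%) were as short. Its peak score of 3.23 was at the 1.11th percentile of 5 kb loops and its probability-like value of 0.971 was the lowest of the 10 loops. It was thus the weakest of the set by both measures.

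Hoxd4 and Hoxd1, the remaining members, had no loop. Hoxd4 acts in the vertebral column and hindbrain, and its start lay 1.98 kb past the Hoxd3 anchor. The start of Hoxd1, at the early-expressed end of the cluster, lay 23.0 kb from the nearest anchor. Both were enclosed by loops anchored elsewhere. Hoxd4 lay inside 4 loops, the 3 from the Hoxd3 anchor and the loop within the cluster, and Hoxd1 lay inside 3. Hoxd9, Hoxd8 and Evx2 were enclosed by 1 loop each, and no loop enclosed Hoxd13, Hoxd12, Hoxd11, Hoxd10 or Hoxd3.

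By member, an end of the gene record lay at an anchor for 4 of 10, namely Evx2, Hoxd13, Hoxd11 and Hoxd3. The share over all 21631 protein-coding genes was 9.04%. A transcription start lay at an anchor for 3 of 10, Evx2, Hoxd13 and Hoxd3, against 5.2% of 17274 protein-coding genes in the promoter table. Counted by starts, Evx2 had 3 loops, Hoxd13 had 3 and Hoxd3 had 2. Starts at anchors of at least 3 loops were found for 13 of these 17274 genes (0.0753%), among them Evx2 and Hoxd13, which share 1 of those loops. Neighbouring genes cannot be counted as independent, since 1 anchor can serve several. Counted by any overlap of the record, 5 of 10 members were at an anchor, against 17.7% of all genes.

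Of 19 neighbouring protein-coding genes, from Sp3 to Agps and the Ttc30 genes, 1 had an end at an anchor, a share near the 9.04% of all protein-coding genes. That was Ttc30a1, an intraflagellar transport gene, whose loop lay outside the interval. Lnpk and Mtx2, the nearest protein-coding genes on the 2 flanks, had none. The lower-coordinate loops from Evx2 and Hoxd13 passed over Lnpk, and the loops from the Hoxd3 anchor passed over Mtx2. The nearest loop below the interval ended 1780 kb before it (peak score 5.03), and the nearest above began 5 kb past it (peak score 4.60), with a span of 170 kb in each case.

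Within the whole list, the Evx2 and Hoxd13 anchor, with 5 loops, was 1 of 4 merged anchors with at least 5 (0.0458% of 8740). The Hoxd3 anchor, with 3 loops, was 1 of 134 with at least 3 (1.53%). Loops all running 1 way were the rule at such anchors, at 109 of 134 (81.3%). The arrangement of the cluster was also counted across the list, by a criterion written after it had been seen. It required an anchor with all loops toward lower coordinates, followed within 100 kb by one with all loops toward higher coordinates. With at least 3 loops at each anchor, the Hoxd cluster held the only such pair of anchors listed. With at least 2 loops at each, there were 50 such pairs, some of which shared an anchor, and 1 of them was that of the Hoxd cluster. With all loops of 25 kb pixels left out of the list, the left anchor divided into an Evx2 anchor and a Hoxd13 anchor of 2 loops each. No pair then met the criterion of 3, and 33 pairs met that of 2, with 2 of them in the Hoxd cluster. If anchors 10 kb apart were taken as 1 site, the pair of the Hoxd cluster would not meet the criterion either.

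**Figure D3:**
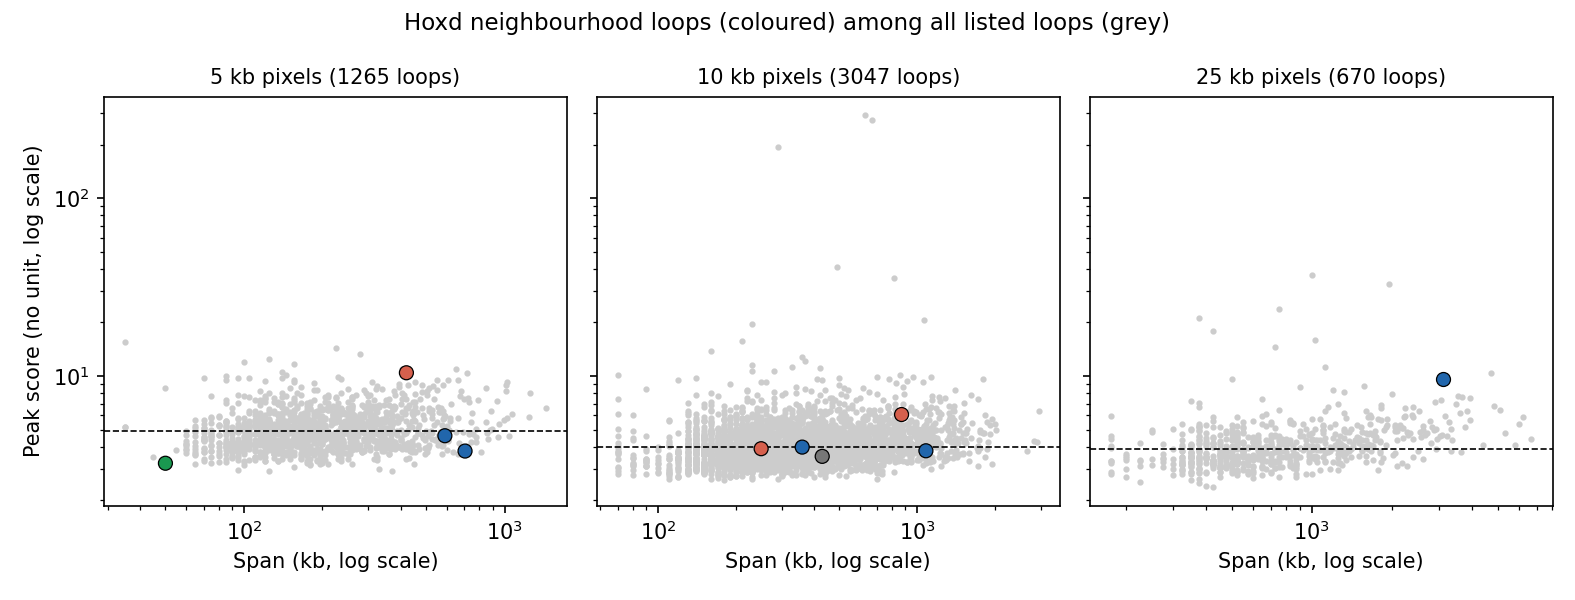
Every loop of the list is a grey point, by span (kb, log scale) and deposited peak score (log scale), in panels for 5, 10 and 25 kb pixels, with the median score of each panel as a dashed line. Coloured points are the 10 loops of the Hoxd neighbourhood, with blue toward lower coordinates, red toward higher, green inside the cluster and grey outlined in black outside it. Above the line lie 3 of the 10, with scores of 10.4, 9.63 and 6.08.

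As a set, the 10 loops were long by their median, and their scores were spread widely. Within pixel sizes they ran from the 1.11th to the 99.3th percentile. Their median span was 510 kb, against 325 kb over the list. Their median peak score was 3.94, against 4.16 over the list, with pixel sizes pooled in both. Only 3 reached the median score of their own pixel size (4.88 at 5 kb, 3.996 at 10 kb and 3.87 at 25 kb). These were the loop to Gm13652, the loop to Dlx1 and Dlx2 and the 870 kb loop from Hoxd3. The loops toward lower coordinates spanned 360 to 3125 kb with a median score of 3.98. Those toward higher coordinates spanned 250 to 870 kb with a median score of 6.08.

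Set beside the other Hox clusters, the Hoxd cluster had the most loops with an anchor inside it. It had 9 loops, against 4 at Hoxa with Evx1, 3 at Hoxb and 2 at Hoxc. The difference was not tested, since the list has no replicates and the Hoxd cluster was selected on the number and direction of its loops. At Hoxa, 2 loops ran each way, from Hoxa3, Hoxa6 and Hoxa7 toward lower coordinates and from 52270001 to 52280000 of chromosome 6 toward higher ones. At Hoxb, 2 ran toward lower coordinates and 1 toward higher, and at Hoxc 1 ran each way. The order of anchors seen at Hoxd, lower-running before higher-running, was also that of Hoxa and Hoxc. At Hoxb, 1 lower-running anchor lay past the higher-running one. The lower-running anchors of Hoxa, 52205001 to 52210000 and 52210001 to 52220000, abut but share no base. They were therefore not merged, and Hoxa was not among the 50 pairs with at least 2 loops at each anchor. Only Hoxd had a loop with both anchors inside the cluster. Spans reached 3125 kb at Hoxd, 1025 kb at Hoxa, 240 kb at Hoxb and 190 kb at Hoxc. The highest peak score was 10.4 at Hoxd, 9.32 at Hoxa, 7.52 at Hoxb and 5.06 at Hoxc. Of Hoxc, Hoxc12 was the only gene with an end at an anchor, and 1 listed loop passed over that whole cluster.

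**Figure D4:**
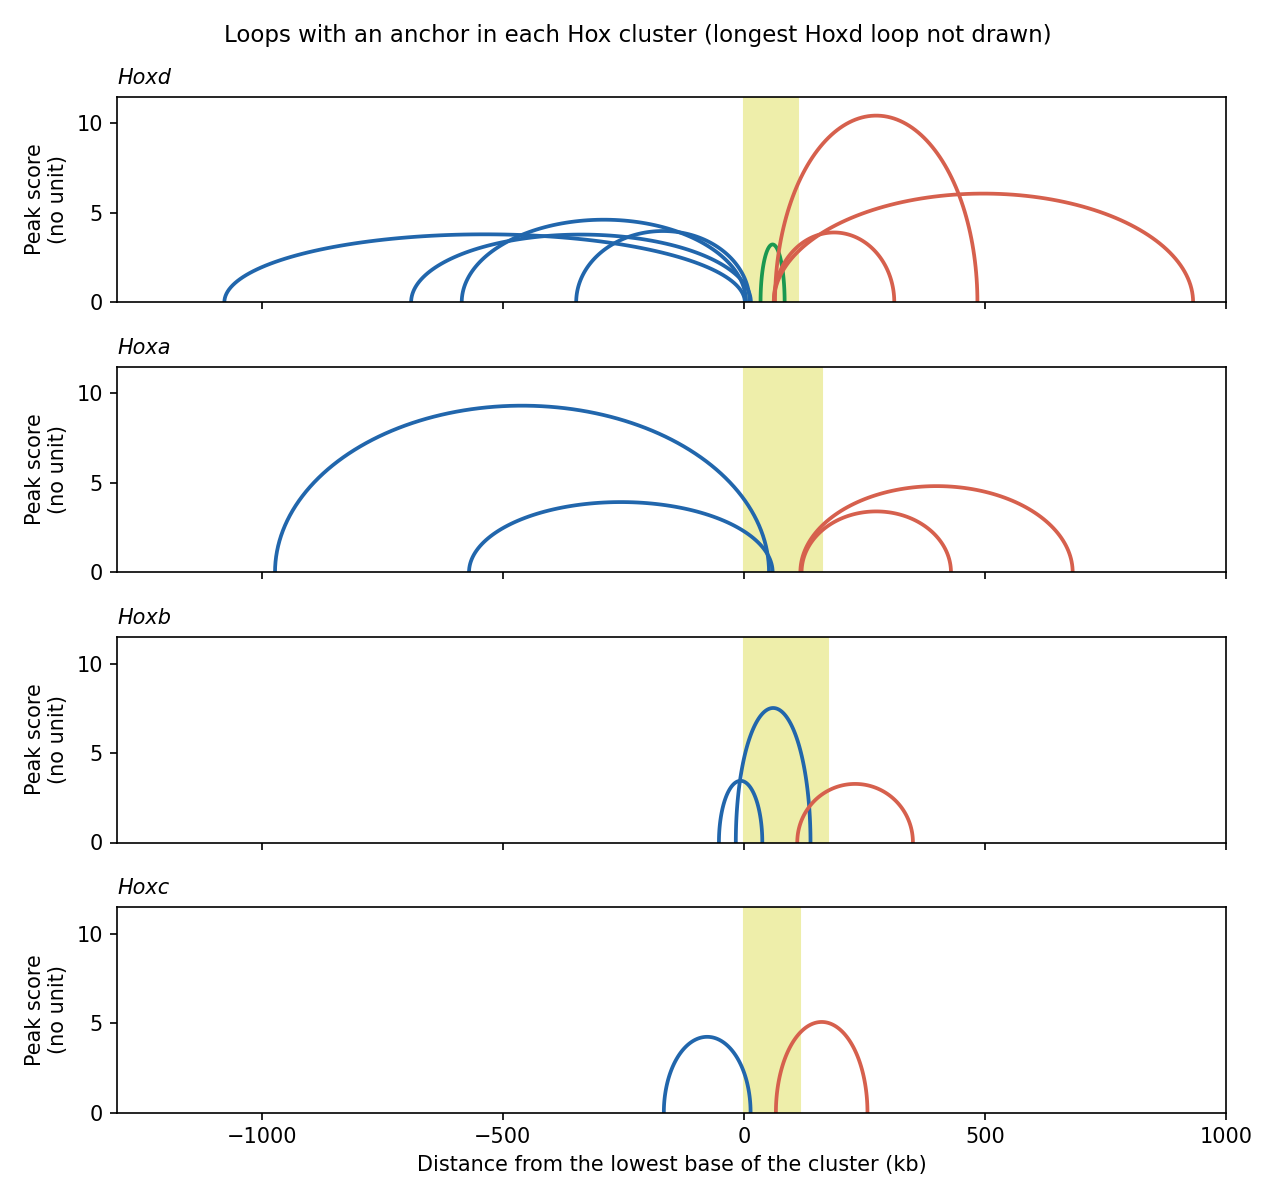
Arcs are loops with an anchor in each Hox cluster (shaded), by distance from its lowest base (kb), with arc height giving the deposited peak score and the loop of 3125 kb at Hoxd left out. Blue arcs run toward lower coordinates, red toward higher, and green lies inside. All 4 clusters have arcs on both sides, and Hoxd has the most.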

How the data were processed

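Chromatin contacts were measured by Micro-C in 2 samples of V6.5 cells, which form 1 group by their titles. Per the submitters' processing notes, Juicer 1.5.6 was among the tools and mm10 is the build named. Which loop caller was used, at what thresholds, and whether samples were pooled is not given in the sources used here. No header comes with the deposited list, and its columns were identified from their values. The deposited peak score and regional score have no unit. The deposited fraction behaves like a probability. The deposited signal is the peak pixel of the contact map, normalized by the authors in an unknown way.

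Positions were made 1-based, and a span is the distance between anchor midpoints. Anchors sharing at least 1 bp were merged. Genes came from RefSeq GRCm38.p6, the assembly mm10 names, and strands and starts from its promoter table, in which all 10 members were found. Ranks and percentiles were taken within a pixel size. The overlap code, in Python 3.11.15 with pandas 2.3.3, was tested on simulated loops. Members, gene lists and interval were chosen with earlier results of these data known. The genes named were the members, genes at partner anchors and fixed neighbours. The noncoding genes and the motif were added after the data were seen. Exons and introns could not be told apart with the tables used. No test between samples was possible.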

Additional observations from a re-analysis of the deposited data

How the results depend on the processing

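No paired analysis was possible because each loop has a single deposited value for both replicates, which also prevents leaving out a replicate. Of 18 alternative counts for the neighbourhood, 12 stayed within 1.5 times of the reported count. The 10 loops became 4 with 5 kb pixels alone and 3 when a score at or above the median for the pixel size was required. That limit left 1 of the 5 loops toward lower coordinates. The 4 members with a gene end at an anchor became 8 with anchors widened by 5 kb and 2 with 5 kb pixels alone. The median span of 510 kb was 430 kb with 5 and 10 kb pixels and 420 kb with both anchors in the interval. The 5 loops of the Evx2 and Hoxd13 anchor became 2 at each of 2 anchors with 5 and 10 kb pixels, since the loop of 25 kb pixels joins the Evx2 and Hoxd13 anchors. In the other cases the choice itself removed loops or enlarged anchors. Of 40 alternative loop counts of single members, 9 moved by over 1.5 times, all but 3 of them with widened anchors. Alternatives using transcription starts, single members or anchors without 25 kb pixels, and score limits on direction were chosen after seeing the data. Depth is unknown, so a site without a loop may be below detection.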

Other observations

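Of the 6 noncoding records in the cluster, 3 had an end at an anchor, against 6.69% of 27923 such records of the gene table, pseudogenes included. All 3 lay at anchors shared with members, so they add no independent count. Gm31790, a lncRNA between Evx2 and Hoxd13 (74661551 to 74666891), had an end at the anchors of 3 loops. Hoxd3os1 (74710044 to 74716130) had 3 loops, and Gm38462 (74703003 to 74712058), a lncRNA of the same strand, had 2. Mir10b, which lies within the Hoxd4 record at 74726070 to 74726137 and encodes a microRNA related to miR-10a of the Hoxb cluster, had none. Haglr, the lncRNA between Hoxd3 and Hoxd1, and Gm14424 within its record had none either.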
